A study of Rattus norvegicus with 4 samples.

Results

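The integrin and focal adhesion genes are 37 genes chosen by name: 21 integrin chains (13 alpha and 8 beta) and 16 linker, signalling and membrane proteins of the adhesion site. Of these, 35 were found on the array by their symbol or an older symbol, through 60 of its 41012 probes and 96 spots per array. The 35 genes stand among 35654 gene names in the files. Cav1 was found only as Cav, and Itga9 and Tns1 only through LOC identifiers that hold their RefSeq gene numbers, under which the files describe predicted transcripts similar to integrin alpha 9 and to tensin. That Itga9 counts among the chains below rests on this match. Itgb5 also counts as measured only through an older identifier, since the probe that carries its name was at background. Tln1, which encodes talin, and Zyx, which encodes zyxin, had no probe by that rule.

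The arrays measured total RNA from rat testicular peritubular myoid cells, a contractile cell layer in the wall of the seminiferous tubule. The cells came from the testis of male rats aged 40 days and were kept for 4 days in DMEM/Ham's F-12 with defined growth factors. The 2 testosterone arrays were from cells given testosterone at 1e-07 M in pulses, and the 2 control arrays from cells whose titles name them as controls. The labels give no strain, no vehicle and no number of animals pooled, and they do not say whether replicates are separate cultures. The p-values and intervals therefore rest on 4 arrays alone. The test joins each probe's own spread between arrays with that pooled over all tested probes, and both may be technical.

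Integrins are membrane receptors made of 1 alpha and 1 beta chain, and the pair decides which matrix protein or cell surface protein is bound. At the inner face, talin and kindlin bind the beta tail, vinculin, filamin and alpha-actinin tie it to actin, and focal adhesion kinase, Src and paxillin pass signals on. In the wall of the seminiferous tubule, myoid cells and Sertoli cells share a basement membrane rich in laminin, collagen and fibronectin, which such receptors bind.

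All levels below are log2 processed signal relative to the array's own 75th percentile (0 is that percentile), and a difference is testosterone minus control on this log2 scale, given with its 95% interval from limma. Levels of different probes cannot be ranked against each other. Between 63.5% and 68.2% of spots were well above background, and a signal that passed that flag reached down to between -5.68 and -5.51. Replicated spots varied by 9.52% on control replicate 1 and by 5.25% to 5.53% on the other arrays. Of 8 myoid and smooth muscle markers with a probe, 5 were well above background on all arrays (Myl9, Des, Actg2, Smtn and Tagln), Cnn1 was on none, and no probe was named Acta2 or Myh11. The same held for 7 of 8 fibroblast markers and 8 of 9 macrophage and leukocyte markers, among them Cd68, Tyrobp and Aif1. It also held for 5 of 7 Leydig cell markers (Star and Insl3 among them), 5 of 9 Sertoli cell markers and 4 of 8 endothelial markers. For germ cells it was 3 of 8, for mesothelial and epithelial cells 3 of 5, and for platelets and megakaryocytes 2 of 2. Markers of the labelled cell type were thus measured in part, beside markers of other cell types. In such bulk RNA, fewer cells of a type and less RNA per cell cannot be told apart.

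Since testosterone acts through a receptor that binds DNA, promoters of the members were searched for its recognition element. RefSeq windows (build GRCr8, 250 bases before to 50 after the gene start) were found for 27 members, in 32 windows. The full element, taken as the half-site AGAACA, any 3 bases and the half-site's reverse complement, reads the same on both strands. It was in 0 of the 32 and in 0.0149% of all 33469 windows. The half-site alone, which is part of the full element, was searched on both strands and was in 3 of the 32 member windows (9.38%), against 20.7% of all windows. The GC box GGGCGG, searched on both strands and unable to overlap the other motifs, was in 21 of the 32 (65.6%), against 33.1% of all. A match is a string of letters and no evidence of binding. The windows of Itga2 and Cav1 are shown for their half-site and those of Itga5 and Itgb1, the pair that forms the fibronectin receptor, for their GC boxes. Capitals mark the motif named, read 5′ to 3′ on the gene's strand, where a GC box on the opposite strand reads CCGCCC. The third half-site, in Itgb7, lay at positions 18 to 23 after the start.
Itga2 (chr2:48354660-48354759, minus strand, half-site at -227 to -222): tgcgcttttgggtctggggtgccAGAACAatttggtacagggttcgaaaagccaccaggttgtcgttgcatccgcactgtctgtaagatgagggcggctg
Cav1 (chr4:46606439-46606538, plus strand, half-site at -5 to 1, across the start): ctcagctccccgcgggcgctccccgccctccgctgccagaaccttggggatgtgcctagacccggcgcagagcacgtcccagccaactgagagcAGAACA
Itga5 (chr7:136381413-136381512, minus strand, GC box at -147 to -142): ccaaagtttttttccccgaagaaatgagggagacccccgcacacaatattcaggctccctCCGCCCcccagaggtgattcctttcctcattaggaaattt
Itgb1 (chr19:73602101-73602200, plus strand, the first of 2 GC boxes in this window at -116 to -111): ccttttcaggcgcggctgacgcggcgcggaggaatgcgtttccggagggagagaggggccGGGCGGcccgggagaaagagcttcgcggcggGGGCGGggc

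Of the 21 integrin chains, 13 had a probe well above background on all 4 arrays, 8 alpha and 5 beta. Another 6 passed on 1 to 3 arrays, and Itga4 and Itga8 on none. These counts and the pairs below depend on that flag. By a laxer cutoff, the 95th percentile of the array's negative control spots (-7.52 to -7.25), only Itga8 and Itgb6 had no probe above it on all 4 arrays. Among 19 textbook alpha-beta pairs that these chains can form, both partners were measured on every array for 10: alpha 1, 5, 6, 7, 9 and v with beta 1, alpha 6 with beta 4, alpha v with beta 5, and alpha L and alpha M with beta 2. Co-measured RNA in a bulk sample does not place both chains in 1 cell or at its surface. The plot of chain signals shows these levels.

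**Figure D1:**
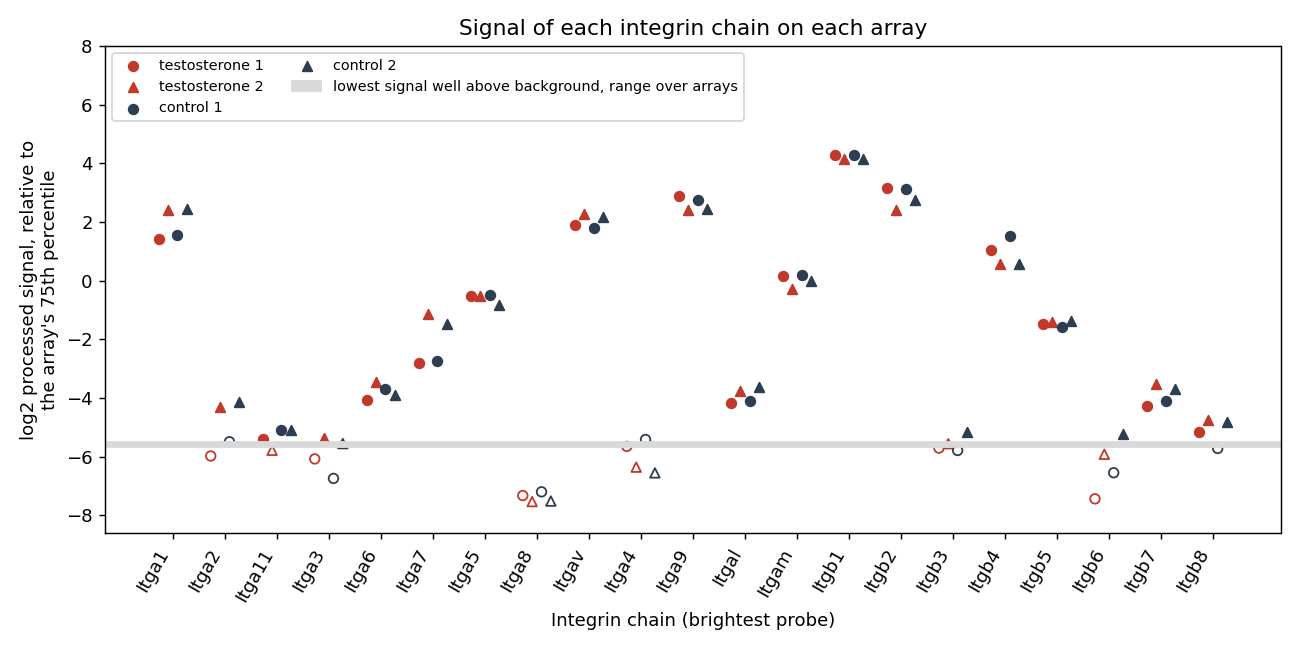
Log2 processed signal of the brightest probe of each of 21 integrin chains (y axis, relative to the array's 75th percentile) on the 2 testosterone arrays (red) and the 2 control arrays (dark), with circles for replicate 1 and triangles for replicate 2. Open symbols were not well above background, and the grey band spans the lowest signal that was, from -5.68 to -5.51 over the arrays. Itga1 and Itga7 separate the circles from the triangles rather than the colours.

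Collagen is bound by the alpha 1, 2 and 11 chains. Itga1 (probe at chr2:47107893-47112038, rat build rn4 as for every probe position here) read 1.41 and 2.42 on testosterone arrays, against 1.55 and 2.45 on control arrays. Both replicates numbered 2 were about 1 log2 unit above both numbered 1, the groups overlapped, and the difference was -0.08 (-1.38 to 1.22). Itga2 read -5.98 and -4.32 on testosterone arrays, against -5.49 and -4.14 on control arrays. Only the replicate 2 array of each group was well above background, so Itga2 was not tested.

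Itga11, a chain of fibroblast-type cells that binds fibrillar collagen, is at chr8:66930435-66930633. It read -5.39 and -5.78 on testosterone arrays, against -5.08 and -5.10 on control arrays. Both testosterone arrays were below both control arrays, and testosterone replicate 2 was not well above background. Itga11 entered the test only through the control group, where its signal is the higher one, so some difference in this direction is built in. The difference was -0.50 (-1.09 to 0.10), with an unadjusted limma p of 0.0827 and an adjusted p of 1.00, so it did not pass the test. All of these signals lie close to the lowest that passes the background flag.

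Laminin is bound by the alpha 3, 6 and 7 chains. Itga6 (chr3:54235957-54236016) read -4.05 and -3.46 on testosterone arrays, against -3.71 and -3.89 on control arrays, with overlap and a difference of 0.04 (-0.69 to 0.78). Itga7 (chr7:2269332-2269391), the laminin chain of muscle, read -2.80 and -1.14 on testosterone arrays, against -2.74 and -1.47 on control arrays. Again the replicate 2 arrays of both groups stood above the replicate 1 arrays, and its difference of 0.13 (-1.79 to 2.05) had the widest interval of the tested members. Itga3 was well above background on testosterone replicate 2 alone, at -6.08 and -5.38 on testosterone arrays against -6.74 and -5.55 on control arrays, and was not tested. Second probes of Itga3 and Itga6 were dim on every array, and that of Itga7 passed on testosterone replicate 2 alone.

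Fibronectin, vitronectin and other ligands with an RGD motif are bound by the alpha 5, 8 and v chains. Itga5 (chr7:142254464-142254523) read -0.53 and -0.52 on testosterone arrays, against -0.48 and -0.82 on control arrays. Control replicate 2 was lowest and the groups overlapped, with a difference of 0.12 (-0.44 to 0.69), and 0.20 at the second probe. Itgav (chr3:67029743-67029802) read 1.89 and 2.28 on testosterone arrays, against 1.80 and 2.19 on control arrays. Its difference was 0.09 (-0.59 to 0.78), with 0.19 (-0.37 to 0.74) at the second probe, and at both the groups overlapped. Itga8, a chain known from smooth muscle and mesangial cells, had 3 probes and none was well above background on any array: the brightest read -7.32 and -7.53 on testosterone arrays, against -7.20 and -7.51 on control arrays.

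The alpha 4 and alpha 9 chains share ligands such as VCAM-1 and fibronectin splice forms. Itga9 (chr8:123839046-123839105) was well above background on every array, at 2.87 and 2.42 on testosterone arrays and 2.75 and 2.43 on control arrays. The groups overlapped, replicate 1 was above replicate 2 in both, and the difference was 0.06 (-0.63 to 0.75). Itga4 read -5.65 and -6.36 on testosterone arrays, against -5.41 and -6.55 on control arrays, and was not well above background on any.

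Alpha L and alpha M are leukocyte chains that pair with beta 2. Itgal (chr1:186594579-186597988) read -4.16 and -3.76 on testosterone arrays, against -4.09 and -3.62 on control arrays, a difference of -0.10 (-0.84 to 0.63). Itgam (chr1:187385032-187385565), the chain of the macrophage receptor Mac-1, read 0.15 and -0.29 on testosterone arrays, against 0.18 and 0.00 on control arrays. Its difference was -0.16 (-0.80 to 0.48). Their partner Itgb2 (chr20:11446736-11446795) read 3.15 and 2.40 on testosterone arrays, against 3.11 and 2.76 on control arrays, a difference of -0.16 (-1.04 to 0.72). At the tested probes of these 3 chains the groups overlapped. These chains were measured together with the macrophage and leukocyte markers, whose summed level was 7.52 and 7.19 on testosterone arrays and 7.55 and 7.25 on control arrays (log2 of the sum of linear values). The Cd68 probe gave the largest signal of that list on every array and weighs most in the sum. The markers' part in the leukocyte chains' signal was not tested.

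Itgb1, the beta chain shared by most of the alpha chains above, had 2 probes. The brighter (chr19:58600532-58600591) read 4.28 and 4.15 on testosterone arrays, against 4.29 and 4.15 on control arrays. The groups overlapped, with hardly any spread between the arrays, and the difference was -0.0013 (-0.51 to 0.51). Its second probe was printed at 10 spots and gave -0.07 (-0.60 to 0.46).

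Itgb4, the laminin receptor chain of epithelia, read 1.04 and 0.58 on testosterone arrays, against 1.53 and 0.57 on control arrays, with a difference of -0.24 (-1.30 to 0.82). Control replicate 1 was the highest array and the groups overlapped. Itgb5, a vitronectin receptor chain, was measured by a probe under an older identifier (chr11:68642561-68642620) at -1.48 and -1.40 on testosterone arrays and -1.58 and -1.36 on control arrays, a difference of 0.03 (-0.49 to 0.55). The probe that carries the name Itgb5 was at background on all arrays, and the file's own description of it is a vasopressin receptor.

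Itgb7, a leukocyte chain, read -4.26 and -3.53 on testosterone arrays, against -4.11 and -3.71 on control arrays, with overlap and a difference of 0.01 (-0.87 to 0.89). Itgb8, which binds latent TGF-beta together with alpha v, read -5.15 and -4.74 on testosterone arrays, against -5.72 and -4.81 on control arrays. Control replicate 1 was not well above background, so Itgb8 entered the test only through the testosterone group, where it is higher. The difference was 0.32 (-0.69 to 1.33), and the interval includes 0. Itgb3, another partner of alpha v, was well above background on control replicate 2 alone, at -5.71 and -5.56 on testosterone arrays and -5.79 and -5.15 on control arrays. The same array was the only one to pass for Itgb6, an epithelial chain, at -7.44 and -5.92 on testosterone arrays and -6.55 and -5.22 on control arrays. Neither was tested.

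Inside the cell, all 14 of the non-integrin members with a probe were well above background on every array. Vcl encodes vinculin, which reinforces the link from talin to actin, and its brightest probe (chr15:3478800-3478859) read 2.34 and 1.73 on testosterone arrays, against 2.45 and 2.22 on control arrays. Testosterone replicate 2 was lowest and the groups overlapped, with a difference of -0.30 (-1.05 to 0.46). The other Vcl probes gave -0.14 and 0.02. Flna, the actin crosslinker filamin A that also binds beta tails (chrX:160384442-160385117), read 2.50 and 1.95 on testosterone arrays, against 2.85 and 2.00 on control arrays. Replicate 1 was higher in both groups, and the difference was -0.20 (-1.22 to 0.82).

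At their brightest probes the remaining linkers had differences smaller in size than those of Vcl and Flna. The alpha-actinins Actn1 and Actn4, which crosslink actin, differed by -0.03 and -0.04, Vasp, which promotes actin filament growth, by -0.08, and Tns1, the tensin that binds beta tails, by -0.14. All 4 intervals include 0. Zyxin, a force-responsive LIM protein, had no probe by name. A probe outside the rule that the file describes as a zyxin fragment read 1.78 and 1.84 on testosterone arrays, against 1.93 and 1.82 on control arrays, a difference of -0.06 (-0.55 to 0.43).

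Ptk2, which encodes focal adhesion kinase, had 6 tested probes with differences from -0.12 to 0.10, of which 5 were negative. The brightest, which stands for the gene in the counts and is the positive one (chr7:110933780-110933839), read 4.22 and 4.07 on testosterone arrays, against 4.13 and 3.95 on control arrays, with a difference of 0.10 (-0.42 to 0.63). Src, its partner kinase (chr3:148170452-148170511), read -1.43 and -1.51 on testosterone arrays, against -1.54 and -1.38 on control arrays, each the mean of up to 10 spots. At both of these probes the groups overlapped, and for Src the difference was -0.01 (-0.52 to 0.49). Ilk, the integrin-linked pseudokinase (chr1:163487217-163487276), read 3.73 and 3.47 on testosterone arrays, against 3.80 and 3.46 on control arrays. The groups overlapped with a difference of -0.03 (-0.65 to 0.58), and its complex partners Parva (parvin) and Lims1 (PINCH) differed by -0.06 and 0.05.

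Pxn, the paxillin scaffold, had 3 probes that did not read alike. The brightest (chr12:42322600-42322659) was at 0.42 and 0.41 on testosterone arrays and 0.46 and 0.36 on control arrays, a difference of 0.01 (-0.48 to 0.49). A dimmer one was at -3.61 and -3.76 on testosterone arrays and -3.25 and -3.24 on control arrays, so the groups were apart, with a difference of -0.44 (-0.94 to 0.06, unadjusted limma p of 0.0714). The third gave -0.22 (-1.04 to 0.61). Which transcript forms the probes read was not used here. Bcar1, the Cas scaffold phosphorylated by Src, differed by -0.34 (-1.39 to 0.71), the most negative non-integrin member, and Cav1, the caveolin that holds integrins and Src at caveolae, by 0.01 (-0.87 to 0.89). Cav1 (chr4:42987853-42987912) read -0.27 and -1.04 on testosterone arrays, against -0.50 and -0.81 on control arrays, and its other probes gave -0.03 and -0.15.

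Testosterone against control was tested with limma over 25914 probes, which included 47 probes of 29 member genes. None of the 29 genes was called at an adjusted p under 0.05. The smallest adjusted p among them was 1.00, beside 0 of all probes called (0.00%). No member reached an unadjusted limma p under 0.05, as 208 probes (0.803%) did over the array. Of the 29, 27 were well above background on all arrays, and Itga11 and Itgb8 passed through 1 group only. Each gene is represented by its brightest tested probe: 12 differences were positive and 17 negative, with a median of -0.03 beside -0.01 over all probes, of which 47.7% were positive. Without Itga11 and Itgb8 the split was 11 positive and 16 negative. With normexp background correction and quantile normalization the split over all 29 genes was 8 positive and 21 negative. In that setting the median over all probes was -0.016, against -0.009, and the share of positive probes is not given.

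No member gene had both testosterone arrays above both control arrays, against 6.08% of 22040 genes, and 1, Itga11, had both below, against 9.12%. Over the 47 member probes, 0 were higher with the groups apart (6.15% of all probes) and 5 lower (8.97%), namely 1 each for Itga11, Pxn, Vcl, Actn1 and Ptk2. Each of these genes other than Itga11 had further probes whose groups overlapped. The 15 tested chains had 8 positive and 7 negative differences and a median of 0.01, and the 14 other members 4 and 10 with a median of -0.04. A difference between the chains and the other members was not tested.

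The intervals here are those of the fit without the replicate number. Each joins a gene's own spread with that pooled over all tested probes, so a narrow one does not rest on that gene's arrays alone. All 29 include 0, and 20 lie wholly between -1 and 1, so for those genes a change of 2-fold or more in either direction lies outside the 95% interval. The half-widths had a median of 0.69, close to the 0.64 of all probes, and ran from 0.49 for Pxn to 1.92 for Itga7. The size of the difference was under 0.25 in 25 of 29 genes.

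**Figure D2:**
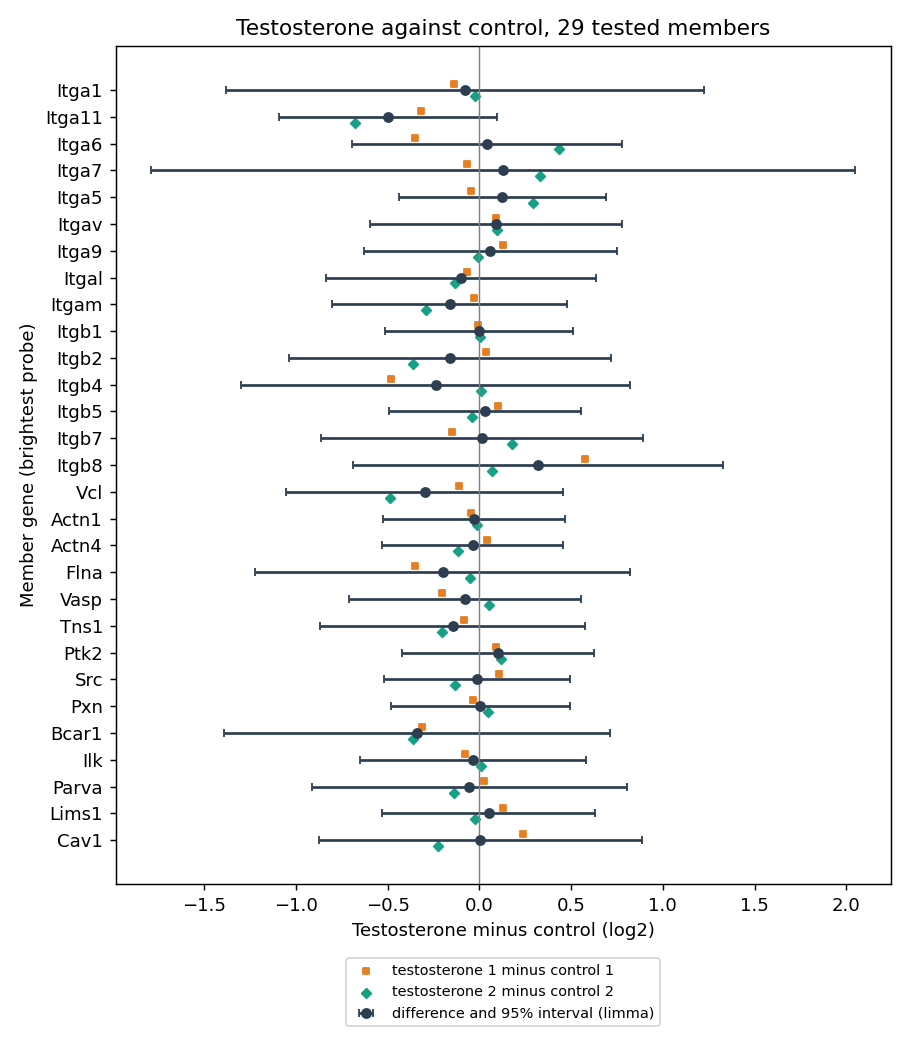
Testosterone minus control (x axis, log2) for the brightest tested probe of 29 member genes (y axis), with dark points and bars for the limma difference and its 95% interval, orange squares for replicate 1 and green diamonds for replicate 2 of both groups. Every bar crosses 0, and Itga7 has the widest. The outer points, Itga11 at -0.50 and Itgb8 at 0.32, are the 2 genes that entered the test only through the group in which they are higher.

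The arrays that share a replicate number differed from the other number in the same direction in both groups for 25 of 29 member genes, against 71.5% of all tested probes. Replicate 2 was above replicate 1 in both groups for 9 genes and below it for 16. For Itga7 replicate 2 was above replicate 1 by 1.66 with testosterone and 1.26 in controls, and for Itga1 by 1.02 with testosterone and 0.90 in controls. The reverse held for Bcar1, at -0.77 with testosterone and -0.72 in controls, and for Flna, at -0.55 with testosterone and -0.85 in controls. In 16 of 29 genes both of these number differences were larger in size than both testosterone-control differences, against 34.8% of all probes. Whether the members differ from all probes in these shares was not tested. The sign of testosterone minus control was the same under both numbers in 12 of 29 genes. The share over all probes was not computed for this count.

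Some markers of other cells differed by number too. The mesothelial marker Msln read -4.91 and -0.62 on testosterone arrays, against -4.53 and -0.60 on control arrays. Tnp1, a transition protein of spermatids, read -3.42 and 1.59 on testosterone arrays, against -2.80 and 1.59 on control arrays. In both, the replicate 2 arrays were far above the replicate 1 arrays of either group. By list, the summed level of 5 mesothelial and epithelial markers with a probe, 3 of them on all arrays, was -1.90 and 0.01 on testosterone arrays and -1.72 and -0.08 on control arrays. For the 8 germ cell markers, also with 3 on all arrays, it was -0.95 and 2.20 on testosterone arrays and -1.04 and 2.20 on control arrays. The probes of Msln and Tnp1 gave the largest signals of their lists on the replicate 2 arrays, so they weigh most in these sums there. That does not rank the genes by amount of RNA. Krt8 read -2.67 and -2.66 on testosterone arrays, against -2.49 and -2.63 on control arrays. Gene by gene, replicate 2 was above replicate 1 in both groups for 2 of these 3 mesothelial and epithelial markers. The same held for all 3 germ cell markers. Of the 5 myoid and smooth muscle markers on all arrays, replicate 2 was above replicate 1 in both groups for 4 and below for 1 (Smtn). Of the 8 macrophage and leukocyte markers it was above for 3 and below for 4, so that list had no single direction. Of the 7 fibroblast markers on all arrays it was above for 6 and below for 0. Of the 5 Leydig cell markers on all arrays it was above for 1 and below for 4. Among 5 Sertoli cell markers on all arrays it was above for 4 and below for 0, and among 4 endothelial markers above for 2 and below for 1. For platelets and megakaryocytes it was above for 2 of 2. The part of such cells in the members' differences between numbers was not tested.

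**Figure D3:**
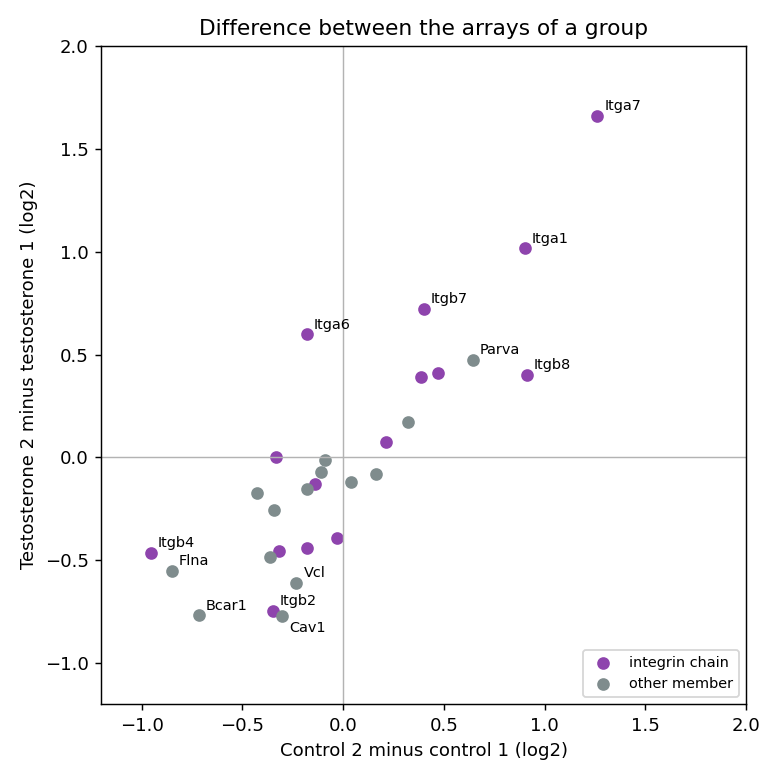
Replicate 2 minus replicate 1 in the testosterone group (y axis, log2) against the same in the control group (x axis, log2) for 29 member genes, with integrin chains in purple and other members in grey. Points in the upper right and lower left quadrants (25 of 29) differ by number in the same direction in both groups, Itga7 and Itga1 most on the positive side.

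Probes printed at 10 spots show how precisely 1 array reads a member. For Itgb1 the second probe averaged 1.56 and 1.38 on testosterone arrays, against 1.45 and 1.63 on control arrays, with SDs between spots of 0.06 and 0.11 on testosterone arrays and 0.09 and 0.03 on control arrays. Control replicate 1 had 2 of 10 spots flagged as outliers and left out, the lower at -6.66. For Ptk2 the spots averaged 1.55 and 1.60 on testosterone arrays, against 1.72 and 1.68 on control arrays. Here the groups were apart, with a difference of -0.12 (-0.61 to 0.36), and control replicate 1 had the widest SD, 0.27, with a spot at 2.41. Cav1 averaged -2.40 and -2.38 on testosterone arrays, against -2.00 and -2.48 on control arrays, so control replicate 1 stood above the other 3. Most other members rest on a single spot per array.

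**Figure D4:**
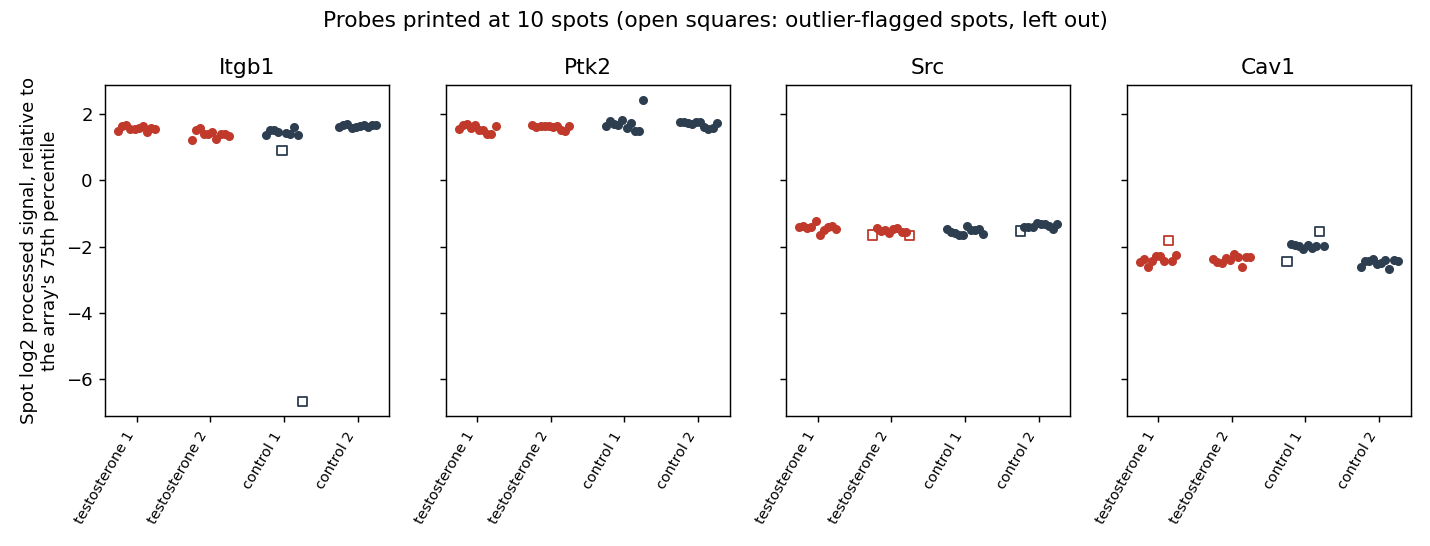
Single spots of the 4 member probes printed at 10 spots, in a panel each for Itgb1, Ptk2, Src and Cav1, on the 2 testosterone arrays (red) and the 2 control arrays (dark). The y axis is log2 processed signal relative to the array's 75th percentile, and open squares are outlier-flagged spots left out of the means, among them the Itgb1 spot at -6.66 on control replicate 1.

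Another 103 genes of the adhesion pathway were read from 5 lists, and 78 of the 90 with a probe were tested. None was called, 33 differences were positive and 45 negative with a median of -0.02, and 4 were higher (against 6.08% of all genes) and 10 lower (against 9.12%) with the groups apart. Among other integrin chains and partners (2 of 3 tested were positive), Itgad, a leukocyte chain, differed by 0.17, Itgae, the T cell chain that binds E-cadherin, by -0.10, and Itgb1bp1, a binder of the beta 1 tail, by 0.05.

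Of 24 tested activation and linker proteins, 11 differences were positive and 13 negative. Fermt2, the kindlin that activates integrins, read 1.92 and 1.95 on testosterone arrays, against 0.23 and 1.97 on control arrays. Control replicate 1 stood alone below the other arrays, and the difference of 0.83 (-0.79 to 2.46) was -0.04 without that array. Tns4 (chr10:87854633-87854692), a tensin, read -3.74 and -3.77 on testosterone arrays, against -3.22 and -3.16 on control arrays. Its groups were apart, and its difference of -0.56 (-1.05 to -0.08) had an unadjusted limma p of 0.0311 and an adjusted p of 1.00, so it was not called. Parvb and Fermt3, the parvin and kindlin paralogs, differed by -0.28 and -0.22.

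Among 22 tested signalling genes, 8 positive and 14 negative, Rock2, a kinase that raises contractility, differed by 0.32, Pak1, a kinase downstream of Rac, by -0.28, Git1, a paxillin binder, by -0.21, and Csk, the kinase that restrains Src, by -0.18. Among 11 other receptors and partners, 3 positive and 8 negative, Cav2 differed by -0.30, Ddr1, a collagen receptor kinase, by 0.27, Sdc4, a syndecan coreceptor for fibronectin, by 0.19 and Slc3a2, a partner of beta chains, by -0.14. None of these 8 passed the test.

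The 18 tested ligands were split evenly, 9 positive and 9 negative, with a median of 0.00. Icam2, a ligand of alpha L beta 2, differed by -0.44 with the groups apart (-0.94 to 0.07). The matricellular proteins Ctgf and Tnc and the microfibril protein Fbn1 differed by 0.41, 0.32 and 0.27. Ctgf read -2.67 and -0.68 on testosterone arrays, against -3.13 and -1.04 on control arrays, and Tnc read -4.60 and -2.60 on testosterone arrays, against -4.93 and -2.91 on control arrays. For both, the replicate 2 arrays were about 2 log2 units above the replicate 1 arrays in each group.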

How the data were processed

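The deposited scanner files hold linear intensity values per spot (processed, mean and background signals) and flags for background and outliers. Per the file headers they were written by Feature Extraction 11.5.1.1 (the submitters' processing notes name 10.5), and probe positions refer to rat build rn4. The deposited series table is on a log2 scale set by the authors: a fixed offset separated each column from the log2 processed signal (8.79 and 8.38 for testosterone replicates, 8.63 and 8.55 for control replicates), so scale, centring and direction are known. Column medians were -3.61 and -3.34 for testosterone and -3.62 and -3.45 for control.

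Outlier spots were dropped, log2 processed signal minus the array's 75th percentile was averaged over a probe's spots, and probes well above background on both arrays of a group were tested (25914 of 41012; 34 lacked a value on 1 or more arrays). The test was limma 3.58.1 (R 4.3.3), 2-sided, with Benjamini-Hochberg adjustment over all tested probes and calls at an adjusted p under 0.05. The fit was also run on simulated arrays, whose noise was independent between arrays and smaller than the spread of the member genes. That run therefore does not show which changes would be recovered in these data. An exact permutation of 2 against 2 arrays cannot go below 0.333, so none is given. The arrays shared 1 slide and 1 scan. The members and lists were chosen with earlier results of these data known. Genes named with values on each array are the chains well above background on any array, members with groups apart and a fixed set of core adhesion genes, and from each outside list up to 4 genes by size of difference among those well above background on all 4 arrays. Alternatives covered background correction, scaling, filters, floor, spots, array area, replicate block and leaving out each array. Array columns 57 to 85, in which 34.1% of tested probes and 11 tested members have a spot, were left out in 1 of these, an area known from an earlier analysis of these files.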

Additional observations from a re-analysis of the deposited data

How the results depend on the processing

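No member was called under any of the alternatives run, and over 424 combinations of member and alternative 60 gave the other sign; Itga11, tested only through the group where it is higher and absent from the filter on all 4 arrays, ran from -0.69 to -0.12. Over all probes 0 were called in every alternative except without control replicate 2, which gave 67 (range 0 to 67 on leaving out an array), and unadjusted p under 0.05 was seen for 36 to 740 probes, against 208. The labels do not say that the number pairs arrays, although deviations of same-numbered arrays correlated at 0.473. With the replicate number as a block, 0 probes were called, and 740 of 25914 had an unadjusted limma p under 0.05. Among members 1 of 29 genes did, Itga11 (0.0441), and 2 of 47 probes, that of Itga11 and a dimmer one of Pxn (0.0428). Whether these shares differ from that of all probes was not tested. All 29 intervals then lay within 1 of 0, against 20, with half-widths of 0.40 to 0.68 (Itga7 0.49, against 1.92). Members lower with the groups apart numbered 2 with normexp and quantile normalization (10.7% of all genes), 0 when only probes well above background on all 4 arrays were kept (8.97%), 2 without columns 57 to 85 (9.38%) and 3 with the mean over a gene's probes (8.84%), against 1. Without columns 57 to 85, where fewer genes remain, 7 members were positive and 29 outside genes negative. The counts of the other sign are not given here, so these cannot be set against the main split. On leaving out each array, 5 to 7 members were higher (19.2% to 41.4% of all genes) and 6 to 13 lower (23.8% to 40.8%) with the groups apart, since 3 arrays part more easily, 11 to 18 were positive and 11 to 18 negative, and the median was -0.07 to 0.01. The cause of the other changes was not tested. Signals near background limit the 6 chains that passed on 1 to 3 arrays, Itga11 and Itgb8 among them.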
